A study of Mus musculus with 27 samples.

Results

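The hepatic levels of 9 serpin genes of clade A were compared in livers of mice without HGFAC (HGFAC-KO, called knockouts here) and of their littermate controls, fed chow or a diet rich in fat and sucrose (HF/HS). The 9 genes were *Serpina1a*, *Serpina1b*, *Serpina1c*, *Serpina1d*, *Serpina1e*, *Serpina3k*, *Serpina3m*, *Serpina3n* and *Serpina6*, all found by symbol among the 23191 gene symbols of the count table. They were chosen by values of these same data: an earlier account of the counts had singled out *Serpina1e* in the genotype comparison on chow, and that comparison is therefore given here as a description without a test. All 27 mice were male, of strain C57BL/6J. Knockouts lacked, in the whole body, exon 2 and a part of exon 1 of *Hgfac*, removed by genome editing. The gene encodes a serine protease that liver secretes and that activates hepatocyte growth factor. The diet was begun at 8 weeks of age and liver was taken after 4 weeks on it, from 7 controls and 6 knockouts fed chow and from 7 of each genotype fed HF/HS.

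Serpins that act as inhibitors trap a protease when it cuts an exposed stretch of the protein, the reactive centre loop, whose sequence sets which proteases are bound. Serpina1, alpha-1 antitrypsin, is made by hepatocytes and holds neutrophil elastase in check. Human liver makes it from a single gene and mouse liver from several near-identical copies. Serpina3 genes have multiplied in the mouse too, and among them *Serpina3k* encodes the plasma protein contrapsin and *Serpina3n* an inhibitor of granzyme B and related proteases that rises in the acute-phase response. *Serpina6* encodes corticosteroid-binding globulin, a serpin that carries glucocorticoid hormones and no longer inhibits a protease.

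The genes lie together on chromosome 12 of GRCm38, from 103646630 to 104414329 (GENCODE annotation), with *Serpina6* and *Serpina1a* to *Serpina1e* on the minus strand and the 3 *Serpina3* genes on the plus strand. *Serpina1e* (ENSMUSG00000072849) spans 103946931 to 103958975. The annotated span of *Serpina1b*, from 103728156 to 103830373, contains the whole of *Serpina1d*, from 103763594 to 103773592 on the same strand. Each of the 5 *Serpina1* genes has a coding length of 1239 bases, and any pair of them shared between 96.3% and 98.5% of its coding bases. *Serpina3k*, *Serpina3m* and *Serpina3n* shared between 83.5% and 91.8%. The stretch of 60 coding bases that begins at the conserved hinge before the loop is shown because the sequence of the loop sets which proteases are bound and the copies differ there. It lies in exon 5 of 5 on the minus strand of GRCm38, at chr12:103853771-103853830 for *Serpina1a*, chr12:103728338-103728397 for *Serpina1b*, chr12:103895108-103895167 for *Serpina1c*, chr12:103763776-103763835 for *Serpina1d* and chr12:103947114-103947173 for *Serpina1e*. Capitals mark the 13 positions at which the 5 genes do not all have the same base.
Serpina1a: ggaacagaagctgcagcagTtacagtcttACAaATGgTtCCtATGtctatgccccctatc
Serpina1b: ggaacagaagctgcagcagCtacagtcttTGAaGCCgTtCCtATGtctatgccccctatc
Serpina1c: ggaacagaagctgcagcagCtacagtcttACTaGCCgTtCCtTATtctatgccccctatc
Serpina1d: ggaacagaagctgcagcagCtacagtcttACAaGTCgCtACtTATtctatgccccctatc
Serpina1e: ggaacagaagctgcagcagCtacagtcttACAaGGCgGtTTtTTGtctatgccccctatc
Pairs of *Serpina1* genes shared between 86.7% and 93.3% of these bases, fewer than over the whole coding sequence. The same stretch of the *Serpina3* genes, in exon 5 of 5 on the plus strand at chr12:104345269-104345328 for *Serpina3k*, chr12:104393769-104393828 for *Serpina3m* and chr12:104413448-104413507 for *Serpina3n*, differed at 28 positions, in capitals.
Serpina3k: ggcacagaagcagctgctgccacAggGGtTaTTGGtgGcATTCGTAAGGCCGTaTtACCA
Serpina3m: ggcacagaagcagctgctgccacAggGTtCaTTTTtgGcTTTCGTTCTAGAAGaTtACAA
Serpina3n: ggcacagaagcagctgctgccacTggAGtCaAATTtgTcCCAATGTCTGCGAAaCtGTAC
The hinge at the start of the stretch was the same in the 3 genes, and the differences were gathered after it.

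Because reads of such copies can be shared, the annotated transcripts were divided into windows of 50 bases, the read length of the study, and each window was looked for in the transcripts of every other gene. *Serpina1c* had 25.8% of its windows to itself, *Serpina1a* 42.4%, *Serpina1d* 49.1%, *Serpina1e* 65.4% and *Serpina1b* 70.5%. The *Serpina3* genes were better told apart, with 86.0% own windows in *Serpina3k*, 80.9% in *Serpina3m* and 93.1% in *Serpina3n*, and *Serpina6* shared none of its 1760 windows. *Serpina1a* and *Serpina1c* had the most in common, 910 windows. *Serpina3m* is also annotated from the same first base as *Serpina3k*, so that the 2 genes overlap. How the authors' counting treated reads that fit several genes is not given in the sources used here, and levels of single *Serpina1* copies, with their differences, are therefore uncertain while sums over the copies are less so.

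**Figure D1:**
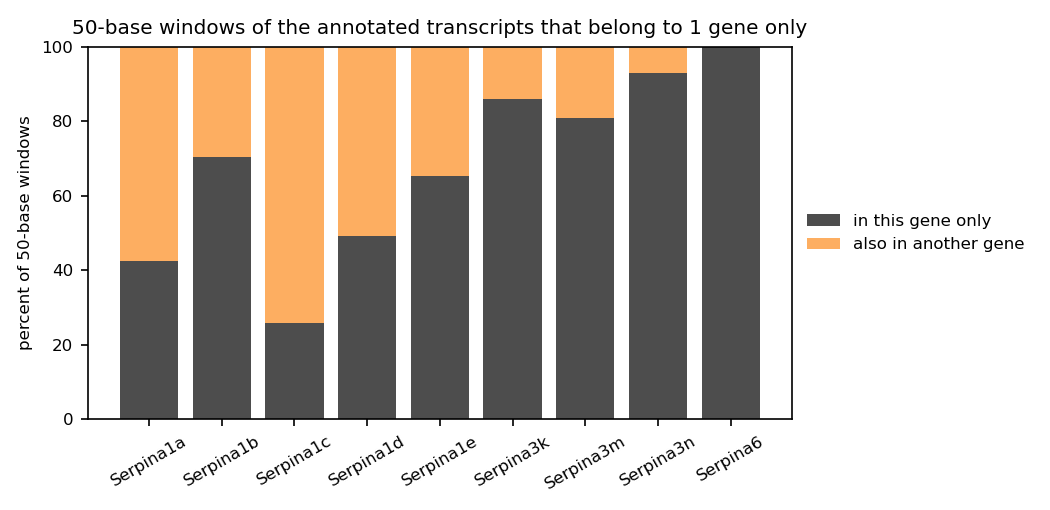
Percent of the 50-base windows of each gene's annotated transcripts found in that gene only (dark) or also in another gene (light), for the 9 serpin genes. *Serpina1c* has the fewest windows of its own (25.8%) and *Serpina6* has only its own.

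The count table gave each library between 36056177 and 57298657 counts, of which rows without a gene name held between 4.13% and 12.1% and were left out. The smallest count of any of the 9 genes in a library was 1510 and the largest 669168, so that counting error was small beside the spread between mice. *Hgfac* itself was lower in every knockout (at most 100.6 CPM, TMM-normalized counts scaled to a common library size) than in every control (at least 183 CPM). Any 2 libraries of a group differed by more than sampling noise. The 5 hepatocyte markers *Alb*, *Ttr*, *Apob*, *Cps1* and *Cyp2e1* were all present and their summed level had group medians of 79410 CPM in controls on chow, 87469 CPM in knockouts on chow, 75022 CPM in controls on HF/HS and 99976 CPM in knockouts on HF/HS. Its medians were higher in knockouts on both diets, with overlap between mice, and the part of this in the values below was not tested. In bulk liver, fewer cells of a type and less RNA per cell cannot be told apart.

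Levels of different genes were compared per kilobase of exon. In controls on chow, *Serpina3k* stood highest at 4947 ± 295 CPM per kilobase (SD, n = 7) and *Serpina1e* next at 3104 ± 518. The mice did not overlap between these genes in that group. *Serpina1c* (952 ± 119.5), *Serpina1b* (893 ± 76.5) and *Serpina1d* (876 ± 53.3) followed and did not differ beyond their spread. *Serpina1a* was lower at 621 ± 63.7. These ranks rest on exon lengths of 2415 bases in *Serpina1b*, 1832 in *Serpina1a*, 1394 in *Serpina1d* and 1361 in *Serpina1c*. In CPM, *Serpina1b* (1982.6 to 2497) lay above *Serpina1c* (1159 to 1532), *Serpina1d* (1131 to 1313) and *Serpina1a* (924 to 1248). The latter genes overlapped in CPM. *Serpina3n* stood at 149.9 ± 26.7, *Serpina3m* at 96.6 ± 18.1 and *Serpina6* at 38.2 ± 3.23 CPM per kilobase. The means per kilobase kept this order in all 4 groups apart from *Serpina1b*, *Serpina1c* and *Serpina1d*, which changed places. Outside controls on chow, mice overlapped between *Serpina3k* and *Serpina1e* in every group. In knockouts on HF/HS these 2 genes had means of 4890 ± 672 and 4753 ± 797 CPM per kilobase (SD, n = 7). Their medians there were 4688 and 4956, with *Serpina1e* the higher. Together the 9 genes took 1.99% to 2.85% of all named counts, depending on the mouse. *Serpina3k* made up between 91.4% and 96.6% of the counts of the 3 *Serpina3* genes in every mouse.

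**Figure D2:**
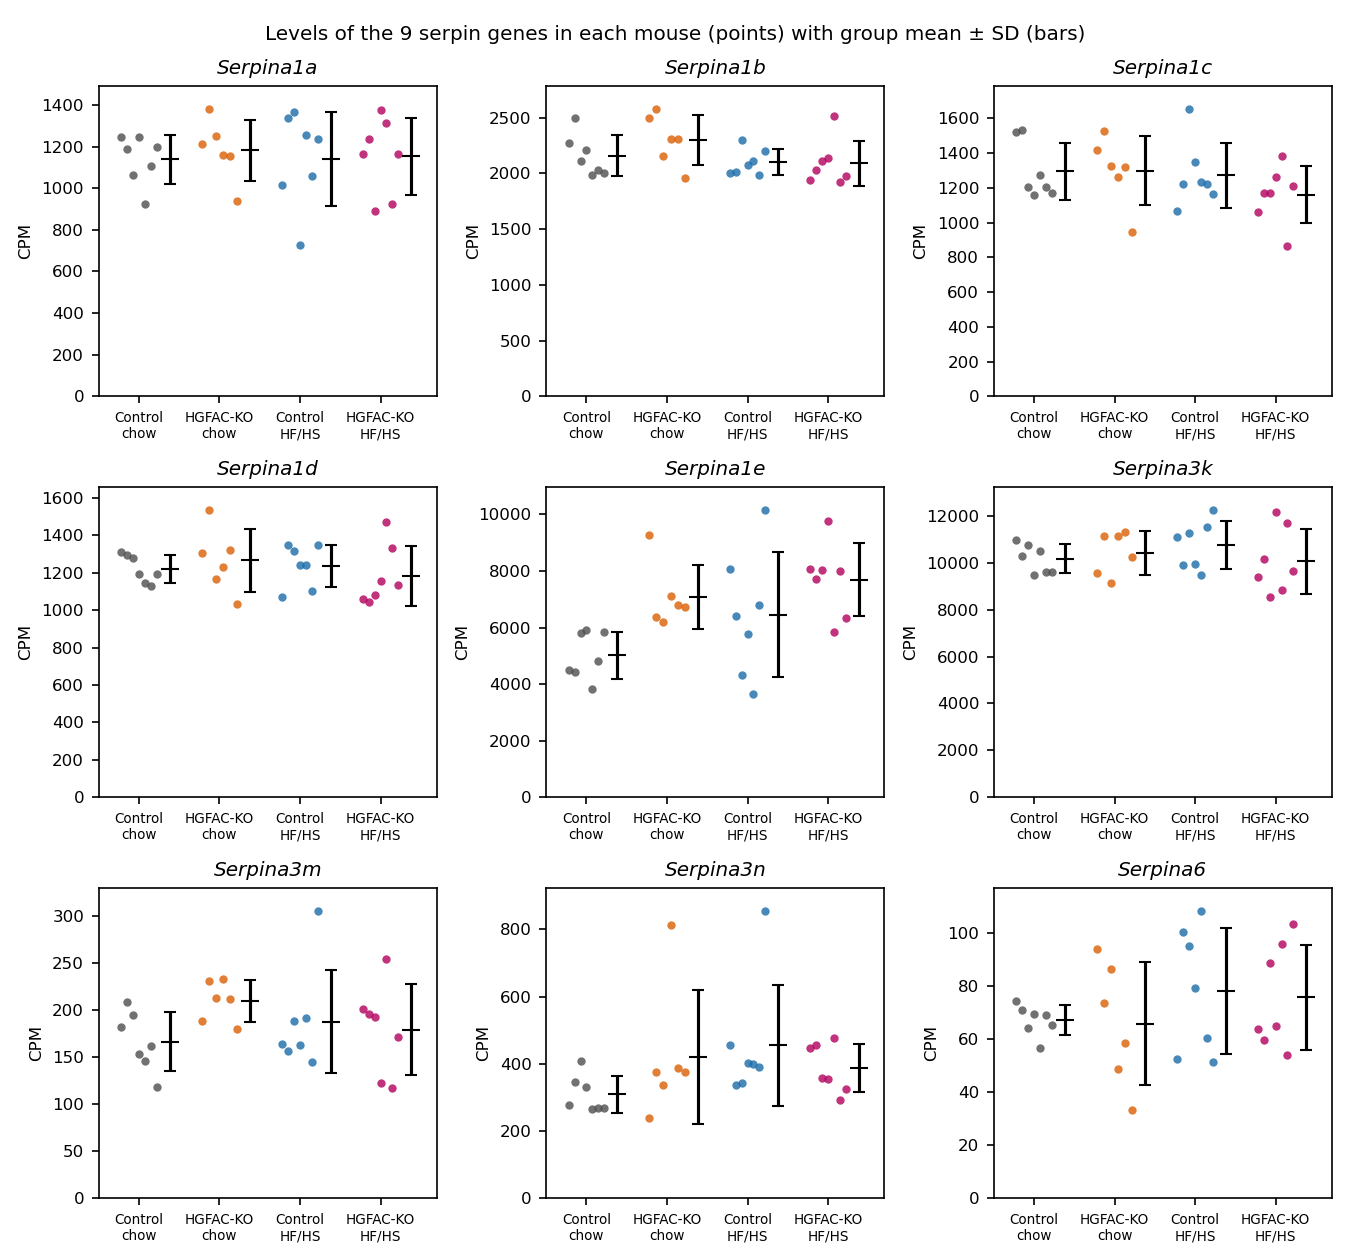
Level of each serpin gene in CPM (linear axes from 0) in every mouse (points) with the mean ± SD of each group (bars), for controls and knockouts on chow and HF/HS. *Serpina1e* ranges from 3651 to 10154 CPM over the 27 mice, and single mice stand far above their group in *Serpina3n*.

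The effect of HF/HS feeding was compared within each genotype. In controls, 1424 of 13525 genes passed an adjusted p of 0.05 in the quasi-likelihood test of edgeR (Benjamini-Hochberg adjustment over all genes tested), a background of 10.5%, and none of the 9 serpin genes did. *Serpina3n* had the largest change among the 9. It ran from 265 to 409 CPM (median 277) in controls on chow and from 337 to 855 CPM (median 399.7) in controls on HF/HS, and the groups overlapped. The log2 fold change was 0.56 with a standard error of 0.19 (adjusted p = 0.0813, edgeR; unadjusted p = 0.0115). A single mouse carried much of it: without replicate 7 of the controls on HF/HS the log2 fold change was 0.33. This was the one gene of the 9 with an unadjusted p under 0.05, against 3433 of the 13525 genes, and DESeq2 and limma voom called none of the 9 either.

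*Serpina1e* ran from 3819.6 to 5905 CPM (median 4805) in controls on chow and from 3651 to 10154 CPM (median 6416) in controls on HF/HS. The HF/HS mice lay both below and above the whole chow range. The log2 fold change was 0.36 with a standard error of 0.19 (adjusted p = 0.251, edgeR), and it was 0.22 without replicate 7 of the HF/HS group. This contrast shares its chow controls with the comparison that had drawn attention to *Serpina1e*. The other *Serpina1* genes differed little between the diets in controls. Their log2 fold changes lay between -0.04 (*Serpina1b*, 95% interval -0.16 to 0.08) and 0.02 (*Serpina1d*, -0.10 to 0.14), and those of *Serpina1a* (0.01, -0.22 to 0.24) and *Serpina1c* (-0.02, -0.21 to 0.16) lay between them. With any 1 mouse left out, all 4 stayed between -0.10 and 0.09. *Serpina3k* had 0.08 with a standard error of 0.07, *Serpina3m* 0.18 with 0.16 and *Serpina6* 0.22 with 0.16 on the log2 scale. Without replicate 7 of the HF/HS group *Serpina3m* was at 0.01 and *Serpina3k* at 0.05, and *Serpina6* was at 0.13 without replicate 5. Of the 9 genes 7 had a positive sign, and their median log2 fold change was 0.08 beside 0.00 over all genes tested. No serpin gene of the 9 separated the groups mouse by mouse, where 3.56% of all genes tested did.

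In knockouts, 802 of 13613 genes passed by the same test, 5.89%, and again none of the 9. None of them had an unadjusted p under 0.05, against 3043 of all genes, and neither DESeq2 nor limma voom called any. *Serpina1e* had medians of 6773 CPM on chow (6200.1 to 9284) and 8014 CPM on HF/HS (5843 to 9768), a log2 fold change of 0.12 with a standard error of 0.12 (adjusted p = 0.593, edgeR). It was 0.06 without replicate 4 of the HF/HS group and 0.21 without replicate 1 of the chow group. The chow-fed knockouts, too, are mice of the comparison in which the gene had been singled out. *Serpina3n* had medians of 375 CPM on chow (238 to 814) and 357 CPM on HF/HS (293 to 478). Its log2 fold change was -0.11 with a standard error of 0.23 and turned to 0.18 without replicate 4 of the chow group, the mouse at 814 CPM. *Serpina3m* (-0.22, standard error 0.15), *Serpina1c* (-0.16, 0.11), *Serpina1b* (-0.13, 0.08), *Serpina1d* (-0.09, 0.10), *Serpina3k* (-0.04, 0.09) and *Serpina1a* (-0.03, 0.11) had negative signs that did not pass, and *Serpina6* had 0.21 with a standard error of 0.23. Leaving out 1 mouse moved most of these. *Serpina3m* ran from -0.33 (without replicate 5 of the HF/HS group) to -0.14 (replicate 6), *Serpina1c* from -0.23 (replicate 6 on chow) to -0.10 (replicate 6 on HF/HS), *Serpina1b* from -0.19 (replicate 5 on HF/HS) to -0.10 (replicate 2 on chow) and *Serpina1d* from -0.16 to -0.04 (the same mice). *Serpina3k* ran from -0.09 to -0.01 (replicates 4 and 3 on HF/HS), *Serpina1a* from -0.09 (replicate 6 on chow) to 0.02 (replicate 3 on HF/HS), and *Serpina6* from 0.07 to 0.34 (replicates 6 and 1 on chow). The median over the 9 was -0.09. The share of genes whose groups did not overlap was 3.03% over all genes, and no serpin gene of the 9 was among them.

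**Figure D3:**
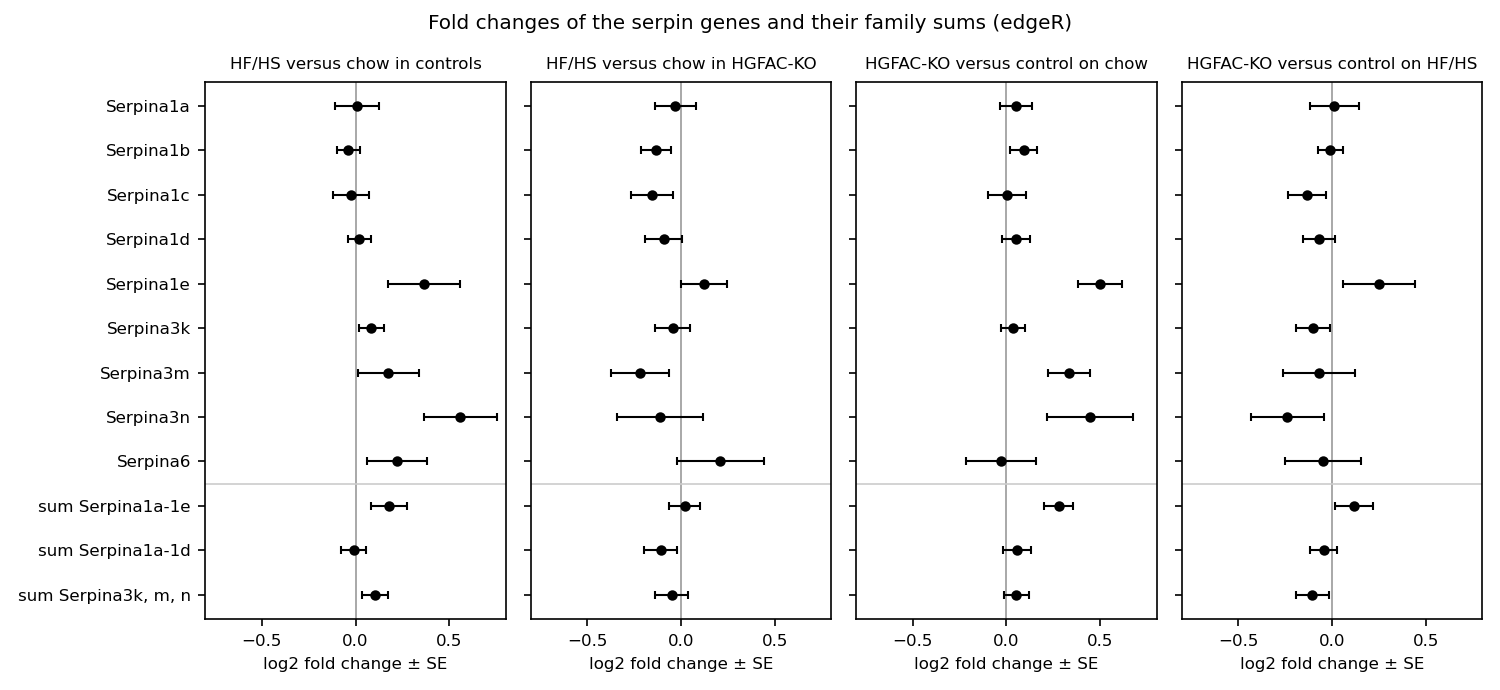
Log2 fold change (points) with its standard error (bars) from edgeR for each of the 9 serpin genes and for the sums of *Serpina1a* to *Serpina1e*, of *Serpina1a* to *Serpina1d* and of the 3 *Serpina3* genes, in the 4 comparisons. The largest values are those of *Serpina3n* in controls between diets (0.56) and of *Serpina1e* on chow between genotypes (0.50).

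The comparison of genotypes on HF/HS used none of the chow-fed mice in which *Serpina1e* had been singled out. Of 13544 genes 2 passed, 0.0148%, and none of the 9. No serpin gene of the 9 had an unadjusted p under 0.05, against 1306 genes in all, and DESeq2 and limma voom called none of them. *Serpina1e* averaged 6452 ± 2209 CPM among controls and 7685 ± 1289 CPM among knockouts (SD, n = 7 each). The knockouts, from 5843 to 9768 CPM, lay within the control range of 3651 to 10154. The log2 fold change was 0.25 with a standard error of 0.19 (95% interval -0.13 to 0.62, adjusted p = 0.702, edgeR), so that neither no difference nor one as large as on chow fell outside the interval. It was 0.40 without replicate 7 and 0.15 without replicate 5 of the controls. *Serpina3n* averaged 455 ± 181 CPM in controls and 387 ± 71.7 CPM in knockouts, a log2 fold change of -0.24 with a standard error of 0.20, which was -0.01 without replicate 7 of the controls. *Serpina1c* had -0.13 (standard error 0.10), *Serpina3k* -0.10 (0.09), *Serpina1d* and *Serpina3m* -0.07 (0.08 and 0.19), *Serpina6* -0.05 (0.20), *Serpina1b* -0.01 (0.07) and *Serpina1a* 0.01 (0.13). With 1 mouse left out, *Serpina1c* ran from -0.18 (without replicate 5 of the knockouts) to -0.06 (replicate 3 of the controls), *Serpina3k* from -0.15 (replicate 4 of the knockouts) to -0.07 (replicate 7 of the controls) and *Serpina1d* from -0.13 to -0.04 (replicates 5 and 2 of the knockouts). *Serpina3m* ran from -0.17 (replicate 5 of the knockouts) to 0.09 (replicate 7 of the controls), *Serpina6* from -0.14 (replicate 7 of the knockouts) to 0.05 (replicate 5 of the controls), and *Serpina1a* and *Serpina1b* changed sign as well. Groups that did not overlap were seen for 11 genes, 0.0812% of those tested, and for none of the 9.

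On chow, where *Serpina1e* had been selected on its difference, it ran from 3819.6 to 5905 CPM (5019 ± 837, SD, n = 7) in controls and from 6200.1 to 9284 CPM (7087 ± 1123, n = 6) in knockouts. Every knockout stood above every control. The log2 fold change was 0.50 with a standard error of 0.12, and 0.40 without replicate 1 of the knockout group, the mouse at 9284 CPM. The background was 1 gene of 13571 passing by edgeR, 0.00737%, and 17 genes, 0.125%, whose groups did not overlap. Nothing is read from these counts for the 9 genes. *Serpina3m* ran from 118 to 208 CPM among controls, and knockouts ran from 179.6 to 233 CPM, a log2 fold change of 0.33 with a standard error of 0.11. *Serpina3n* had 0.44 with a standard error of 0.23, and 0.14 without replicate 4 of the knockouts. The other 6 genes lay between -0.03 (*Serpina6*) and 0.09 (*Serpina1b*), and with 1 mouse left out between -0.16 (*Serpina6*, without replicate 1 of the knockouts) and 0.13 (*Serpina1b*, without replicate 6). These values show what was selected, and no p is given for them. In *Serpina1e*, controls on HF/HS and knockouts on chow had medians of 6416 and 6773 CPM.

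The interaction, the genotype difference on HF/HS less that on chow over all 27 mice, passed for 0 of 13932 genes by edgeR, 0%, and 506 genes had an unadjusted p under 0.05. It contains the chow difference on which *Serpina1e* had been selected, so that the values of the 9 genes are a description. All 9 differences were negative, but near 0 in *Serpina1a*, which turned to 0.02 without replicate 3 of the knockouts on HF/HS, and in *Serpina6*, which turned from -0.01 to 0.12 without replicate 1 of the knockouts on chow. *Serpina3n* had the largest, -0.68 on the log2 scale with a standard error of 0.31, which was -0.38 without replicate 4 of the knockouts on chow and -0.45 without replicate 7 of the controls on HF/HS. *Serpina3m* had -0.40 with a standard error of 0.24 and *Serpina1e* -0.24 with 0.24, and without that control mouse these were -0.23 and -0.10. The rest lay between -0.13 and -0.01, and *Serpina1b*, *Serpina1c*, *Serpina1d* and *Serpina3k* between -0.21 (*Serpina1c*, without replicate 6 of the knockouts on chow) and -0.06 (*Serpina1d*, without replicate 2) with 1 mouse left out.

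Sums over the copies are less exposed to how reads were divided among them, but would miss reads left uncounted because they fit several genes. The sum of *Serpina1a* to *Serpina1e* had medians of 10951 CPM in controls on chow (9143 to 11710.1), 12985 CPM in knockouts on chow (11615 to 15716), 12163 CPM in controls on HF/HS (9489 to 16099) and 13204 CPM in knockouts on HF/HS (11817 to 15694). The lowest knockout on chow lay just below the highest control. Its log2 fold change was 0.28 with a standard error of 0.08 between genotypes on chow, 0.12 with 0.10 between genotypes on HF/HS, 0.18 with 0.10 between diets in controls and 0.02 with 0.08 between diets in knockouts. The value between genotypes on HF/HS was 0.06 without replicate 5 and 0.20 without replicate 7 of the controls, and that between diets in controls was 0.09 without replicate 7 of the HF/HS group. Between diets in knockouts it turned to -0.02 without replicate 4 of the HF/HS group and was 0.08 without replicate 1 of the chow group. With *Serpina1e* taken out of the sum, the same values were 0.06, -0.04, -0.01 and -0.11, each with a standard error between 0.07 and 0.09. The other 4 copies together had medians of 5656 CPM in controls on chow, 6028 CPM in knockouts on chow, 5838 CPM in controls on HF/HS and 5482 CPM in knockouts on HF/HS. The sum of the 3 *Serpina3* genes had log2 fold changes between -0.11 and 0.10 in the 4 comparisons, with standard errors between 0.07 and 0.09, and between -0.15 and 0.13 with any 1 mouse left out.

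The share of *Serpina1e* in the counts of its family does not depend on library normalization. It averaged 46.1 ± 4.80% (SD, n = 7) in controls on chow, 53.9 ± 4.28% (n = 6) in knockouts on chow, 51.7 ± 9.65% (n = 7) in controls on HF/HS and 57.6 ± 5.64% (n = 7) in knockouts on HF/HS. The widest spread was among controls on HF/HS, from 38.5% to 63.1%. The difference between diets was 5.53 percentage points in controls (two-sided exact permutation test over mice, p = 0.198, adjusted over 3 comparisons 0.200466) and 3.79 percentage points in knockouts (exact p = 0.200466). Between genotypes on HF/HS it was 5.99 percentage points (exact p = 0.189, adjusted 0.200466). None of these exceeded the spread between mice. Single mice moved them: the difference between diets in controls was 3.63 points without replicate 7 and 7.73 without replicate 5 of the HF/HS group, that in knockouts 2.55 without replicate 2 on chow and 5.62 without replicate 5 on HF/HS, and that between genotypes on HF/HS 3.79 without replicate 5 and 7.89 without replicate 7 of the controls. Both diet comparisons use chow-fed mice of the comparison in which the gene was selected. On chow, where the gene was selected, 5 of 6 knockouts lay above all controls.

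**Figure D4:**
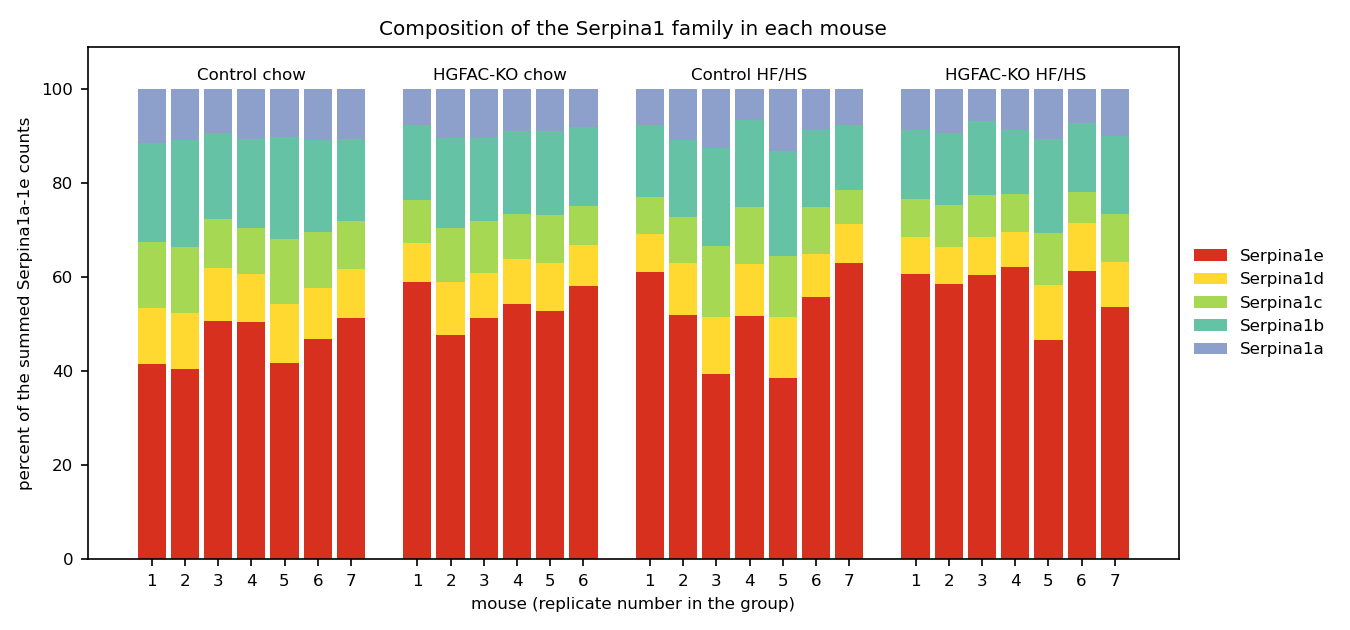
Percent of the summed *Serpina1a* to *Serpina1e* counts that came from each gene, 1 stacked bar for each of the 27 mice, grouped by genotype and diet and numbered by replicate. The *Serpina1e* part (lowest block) runs from 38.5% to 63.1%, both among controls on HF/HS.

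Mice of a group differed from each other more in some of these genes than in others. The within-group SD of log2 CPM was 0.41 for *Serpina3n*, 0.40 for *Serpina6*, 0.33 for *Serpina1e* and 0.32 for *Serpina3m*. Each of these lay at or above the 95th percentile among the 2881 genes with at least 50 CPM on average, whose median was 0.13. *Serpina1a* had 0.23, *Serpina1c* 0.20, *Serpina1d* 0.15, *Serpina3k* 0.14 and *Serpina1b* 0.12. Between mice, after the group means were removed, *Serpina1b* varied with *Serpina1c* (Pearson r = 0.77, Spearman rho = 0.68, 27 mice) and with *Serpina1d* (r = 0.71, rho = 0.58). *Serpina1e* did not follow its copies, with r between -0.38 (*Serpina1c*) and -0.05 (*Serpina1a*). *Serpina6* varied with *Serpina1c* (r = 0.65, rho = 0.61) and went against *Serpina3k* (r = -0.58, rho = -0.64). Its r lay between 0.13 and 0.47 with *Serpina1a*, *Serpina1b*, *Serpina1d* and *Serpina3m*, and was -0.44 with *Serpina1e* and with *Serpina3n*. These are descriptions over mice that share library preparation and normalization, and copies that share reads may be tied by the counting as well, which was not tested.

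The 5 genes outside the set that varied most like *Serpina1e* over the 27 mice, among 13923 genes, were *Ptges3* (r = 0.85), *Slc27a3* (0.84), *Trim30a* (0.82), *Hsph1* (0.81) and *Ahsa2* (0.81). *Ptges3* encodes p23, a cochaperone of HSP90, and *Hsph1* a large heat-shock protein. Without replicate 7 of the controls on HF/HS and replicate 4 of the knockouts on chow, left out after their *Serpina3n* levels had been seen, the 5 values of r lay between 0.76 and 0.84. For *Serpina3k* the 5 were *Serpina3c* (r = 0.76), *Cyp7b1* (0.73), *Serpine2* (0.71), *Letm1* (0.71) and *Drg1* (0.69). *Serpina3c*, a neighbour in the same cluster, had a low level, with a mean of 0.921 CPM.

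*Serpina3n* varied most like *Lrg1* (r = 0.89), *Saa1* (0.88), *Lcn2* (0.88), *Saa2* (0.86) and *Prg4* (0.86). *Saa1* and *Saa2* encode serum amyloid A, and *Lcn2* encodes lipocalin 2, both secreted by liver in the acute-phase response. The mice fell apart here. Replicate 7 of the controls on HF/HS had 855 CPM of *Serpina3n* and replicate 4 of the knockouts on chow 814 CPM, while the other 25 mice ran from 238 to 478 CPM. The same mice had 1227 and 1289.5 CPM of *Saa1*, against 16.3 to 246 CPM in the others, and 90.8 and 111 CPM of *Lcn2*, against 1.85 to 19.0 CPM. They were the 2 highest mice in 7 of 22 acute-phase genes (*Lcn2*, *Mt2*, *Orm2*, *Orm3*, *Saa1*, *Saa2* and *Saa3*). In the fibrinogen genes they differed: *Fgb* stood at 5729 CPM in the control and 3327 CPM in the knockout, which was within the range of the others (2499.5 to 4039 CPM). Without these mice r was 0.77 for *Lrg1* and between 0.62 and 0.68 for the other 4. *Serpina3m* and *Serpina3n* had r = 0.65 with them and 0.58 without.

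**Figure D5:**
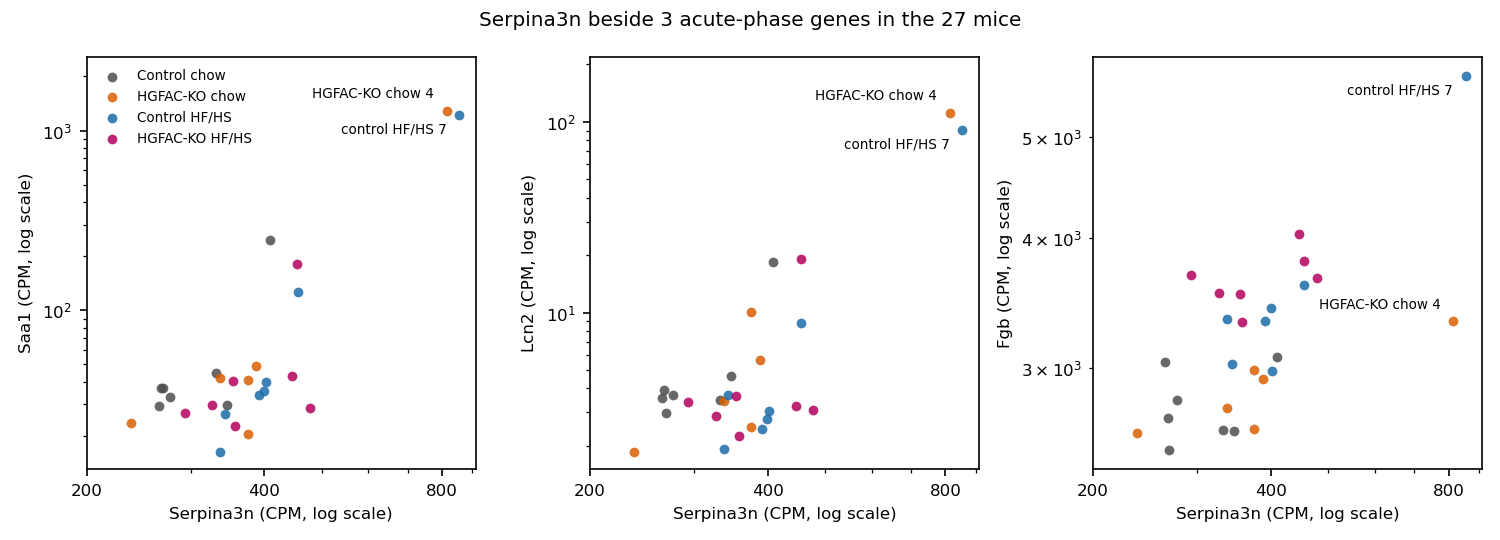
*Serpina3n* (horizontal axis) against *Saa1*, *Lcn2* and *Fgb* (vertical axes) in CPM on log scales, 1 point for each of the 27 mice, coloured by group. Control HF/HS replicate 7 (*Serpina3n* 855 CPM) and knockout chow replicate 4 (814 CPM) stand apart in *Saa1* and *Lcn2*, and only the first of them in *Fgb*.

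Markers of other cell types were summed for comparison. The 5 neutrophil markers (*S100a8*, *S100a9*, *Ly6g*, *Mpo*, *Elane*) summed to between 0.575 and 2.05 CPM on chow and between 1.13 and 5.05 CPM on HF/HS, and 1 of them had no count in any control on chow, as had 1 in the knockouts on chow. The 5 Kupffer cell markers ran from 94.1 to 187 CPM on chow and from 124 to 255 CPM on HF/HS. The 5 cholangiocyte markers had medians of 41.9 CPM in controls and 54.3 CPM in knockouts on chow. On HF/HS these were 47.2 and 58.3 CPM, with overlap between mice on both diets. Medians of lymphocyte and endothelial markers were lower in knockouts on both diets, and those of stellate cell markers only on chow. The part of these cell types in the differences of the serpin genes was not tested.

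Among the other *Serpina* genes of the chromosome 12 cluster, 7 of 14 were expressed enough to be tested. With HF/HS 2 of the 7 (28.6%) passed in controls, beside 10.5% of all genes, and 3 of the 7 (42.9%) in knockouts, beside 5.89%, all of them higher. *Serpina11* rose on HF/HS in controls from 62.0 ± 6.22 to 92.9 ± 6.31 CPM (SD, n = 7 each, 0.59 on the log2 scale, adjusted p = 2.68e-05, edgeR) and in knockouts from 73.4 ± 6.88 to 94.0 ± 8.36 CPM (SD, n = 6 and 7, 0.36 on the log2 scale, adjusted p = 0.00637, edgeR). The next gene but one, *Serpina12*, which encodes the adipokine vaspin, rose in controls from 24.4 ± 10.9 to 68.5 ± 15.2 CPM (SD, n = 7 each, adjusted p = 0.0151, edgeR). Its means in knockouts were 29.1 and 68.3 CPM, a log2 fold change of 1.24 that did not pass (standard error 0.39, adjusted p = 0.0825, edgeR). *Serpina3g* (1.14, standard error 0.25) and *Serpina3f* (1.26, 0.32) rose in knockouts from low levels, with means of 3.24 and 1.43 CPM on chow. In controls *Serpina3g* had 0.97 (standard error 0.35, adjusted p = 0.0950, edgeR) and *Serpina3f* 0.99 (0.44, adjusted p = 0.173), from means of 3.77 and 1.86 CPM on chow. The difference between genotypes in the response to diet passed for none of these genes. In the list of other secreted serpins, 2 of 12 genes passed in controls and 1 of 12 in knockouts, the same *Serpina11* and *Serpina12*. These counts stood beside backgrounds of 10.5% and 5.89%, and no gene of any list passed between genotypes on either diet.

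Among proteases that serpins inhibit, 3 of 6 tested genes rose with HF/HS in controls and none of 7 passed in knockouts. The difference between genotypes in this response passed for none of them. They were *F11* (log2 fold change 0.37, standard error 0.10), which encodes coagulation factor XI, *Klkb1* (0.33, 0.09), which encodes plasma prekallikrein, and *Proc* (0.17, 0.05), which encodes protein C. Of 18 regulators of hepatocyte serpin transcription, none passed in controls and only *Foxa2* in knockouts, where it fell by 0.29 on the log2 scale. Of 15 tested genes of IL-6 and IL-1 signaling, *Il1rap* rose in controls (0.36), and *Il1r1* (0.63), *Il6st* (0.40), which encodes the shared receptor chain gp130, and *Il1rap* (0.30) rose in knockouts. Of 22 acute-phase genes, *Fgb* rose in controls (0.40, standard error 0.12) and *Fga* (0.41), *Fgg* (0.36) and *Fgb* (0.36), the fibrinogen chains, rose in knockouts. Of 18 genes that handle alpha-1 antitrypsin in the secretory pathway, *Erlec1* fell by 0.18 in controls and *Os9* fell by 0.25 in knockouts on the log2 scale, both of which encode lectins of endoplasmic reticulum quality control. Of 12 genes of glucocorticoid handling and response, *Sult2a8*, a sulfotransferase, rose in both genotypes (0.45 and 0.43), and *Tat*, tyrosine aminotransferase, fell by 0.51 in controls and by 0.75 in knockouts, while *Serpina6* did not pass. Beside the backgrounds of 10.5% in controls and 5.89% in knockouts, the shares called in controls were below it for IL-6 and IL-1 signaling (6.67%), the acute-phase genes (4.55%) and the secretory pathway (5.56%), and those in knockouts for the regulators and the secretory pathway (5.56% each). The shares above it in controls were those of the proteases (3 of 6), the glucocorticoid genes (2 of 12, 16.7%), the other genes of the serpin cluster (28.6%) and the other secreted serpins (16.7%). In knockouts they were those of IL-6 and IL-1 signaling (3 of 15), the acute-phase genes (3 of 22, 13.6%), the glucocorticoid genes (2 of 12), the other cluster genes (42.9%) and the other secreted serpins (8.33%). Each rests on 1 to 3 genes. Nothing is read from these counts for the lists.

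Several of these calls lay near the threshold, as a check added after the lists had been seen shows. With each mouse left out in turn, 4 of the 10 genes called in controls passed every time (*Serpina11*, *Serpina12*, *Il1rap* and *Sult2a8*), and so did 7 of 13 in knockouts (*Serpina11*, *Serpina3g*, *Fga*, *Fgg*, *Fgb*, *Os9* and *Tat*). The 12 calls that were lost at least once had adjusted p between 0.0225 and 0.0485 (edgeR) with all mice. All 12 kept their sign. In controls *F11* ran from 0.30 to 0.42 and missed the threshold in 4 of 14 fits (without replicate 2, 5, 6 or 7 on chow). *Klkb1* ran from 0.28 to 0.39 and missed it in 4 (without replicate 2 or 6 on chow or 2 or 5 on HF/HS), and *Erlec1* from -0.20 to -0.16 and missed it in 4 (without replicate 2, 3 or 6 on chow or 3 on HF/HS). *Proc* ran from 0.13 to 0.19 and missed it in 11 fits, and *Tat* from -0.63 to -0.40 and missed it in 12. In knockouts *Foxa2* ran from -0.33 to -0.26 and missed the threshold in 5 of 13 fits (without replicate 2, 5 or 6 on chow or 1 or 4 on HF/HS). *Il1rap* ran from 0.26 to 0.34 and missed it in 5 (without replicate 4 or 6 on chow or 1, 3 or 7 on HF/HS), and *Il6st* from 0.32 to 0.44 and missed it in 4 (without replicate 2 on chow or 1, 2 or 6 on HF/HS). *Il1r1* ran from 0.57 to 0.79 and missed it in 2 (without replicate 2 or 3 on chow), *Serpina3f* from 1.02 to 1.44 in 7, and *Sult2a8* from 0.35 to 0.49 in 10. *Fgb* in controls was the one called gene that a single mouse moved by a larger factor, to 0.25 without replicate 7 of the HF/HS group, the mouse at 5729 CPM beside 2980.2 to 3607 CPM in the rest of its group. It passed without that mouse (adjusted p = 0.0187, edgeR) and missed the threshold in 10 of the 14 fits.

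Promoter sequence from RefSeq (GRCm38.p6, 250 bases before to 50 after the start site) matched 6 of the 9 genes, *Serpina1a* to *Serpina1e* and *Serpina3n*. Pairs of *Serpina1* promoters had between 91.7% and 98.4% identical aligned bases, with positions in gaps not counted. The most alike were *Serpina1b* and *Serpina1e*, whose mean levels in controls on chow differed. These were 893 and 3104 CPM per kilobase, and 2157 and 5019 CPM. The 100 bases before the RefSeq start sites of these genes are shown for that reason, both from the minus strand of GRCm38.p6, at chr12:103738190-103738289 and chr12:103956898-103956997. Capitals mark the letters searched for as a core of the HNF1 site, GTTAAT.
Serpina1b: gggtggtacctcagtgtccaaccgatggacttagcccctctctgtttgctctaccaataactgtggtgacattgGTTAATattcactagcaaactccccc
Serpina1e: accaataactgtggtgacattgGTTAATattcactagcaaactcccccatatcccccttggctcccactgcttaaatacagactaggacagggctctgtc
The same block of sequence stands 26 bases before the RefSeq start of *Serpina1b* and 78 before that of *Serpina1e*. These starts, at 103738189 and 103956897, are not the ends of the GENCODE spans, which lie 92184 and 2078 bases further upstream, but stand 31 bases and 1 base from the nearest GENCODE transcript start of each gene. GTTAAT, searched on both strands, was found in all 5 *Serpina1* promoters and not in that of *Serpina3n*, and in 7.10% of the 32851 promoters of the table. As the 5 promoters are copies of each other, they are not separate occurrences. The motifs TTGCAAT (C/EBP, in 2.22% of all promoters), TTCNNNGAA (STAT, 8.30%) and CACGTG (E-box, 7.15%) had no match in these 6 windows.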

How the data were processed

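Livers of 27 mice (controls and knockouts, 7 and 6 fed chow, 7 and 7 fed HF/HS) were measured by RNA-Seq, and mice were grouped by their labels. Poly(A) RNA was made into stranded libraries, sequenced as paired reads and aligned to GRCm38 (mm10 in the submitters' processing notes). The authors counted reads on genes with featureCounts 1.6.3 and deposited raw counts per gene for all mice in 1 table. The strand setting and the treatment of reads that fit several genes are not given in the sources used here. Rows of 1 symbol (89 symbols) were summed, and 3886 rows without a gene name, holding 4.13% to 12.1% of the counts of a library, stayed out of library sizes and tests. Total counts ran from 36056177 to 57298657 per library.

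The test on counts was that of edgeR 4.0.16 in R 4.3.3 (TMM, filterByExpr with a minimum count of 10, robust quasi-likelihood fit), with Benjamini-Hochberg adjustment over all genes tested and a threshold of 0.05. Each comparison used only its own groups, and the interaction all 27 mice. Sums over copies were fitted as 1 row and carry no p. The 95% intervals are 1.96 standard errors to each side. Likeness used log2 CPM (prior count 2) less group means. Coordinates, exon lengths and transcripts came from GENCODE vM21 and promoters from RefSeq. Alternatives were DESeq2 1.42.0, limma voom (limma 3.58.1), upper-quartile normalization, library sizes without the 9 genes, no filter, at least 10 counts in every library, all 27 mice in 1 fit, the replicate number as a block, and each mouse left out. The fits were tested on simulated data. The labels do not say whether mice shared a litter or cage, so that p-values measure the spread between these mice. The genes and all lists were chosen with earlier results of these data known. Named genes were the 9 members, at most 3 called genes of each list with the smallest p, other called serpins of the cluster, and the 5 most alike genes. Genes named for the 2 mice that stand apart, and for replicate 2 of the knockouts on HF/HS, were chosen after their values were seen.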

Additional observations from a re-analysis of the deposited data

Results flagged for a closer look

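In 48 sets of mice (the 9 genes and 3 family sums in 4 groups), 6 held a mouse whose gap to the nearest other was large for the range of its group. Chance alone flags about 1 in 20 such sets. Replicate 7 of the controls on HF/HS was highest in *Serpina3n*, at 855 CPM with the next at 455 CPM, and in *Serpina3m*, at 305 CPM with the next at 191 CPM. Replicate 4 of the knockouts on chow was highest in *Serpina3n*, at 814 CPM with the next at 388 CPM. Replicate 1 of the knockouts on chow was highest in *Serpina1e*, at 9284 CPM with the next at 7108 CPM. Among knockouts on HF/HS, replicate 5 was highest in *Serpina1b* at 2512 CPM and replicate 4 in the sum of *Serpina1a* to *Serpina1e* at 15694 CPM. The cause was not tested for any of these mice.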

How the results depend on the processing

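None of the 9 serpin genes was called between diets in either genotype or between genotypes on HF/HS under any alternative run, DESeq2, limma voom and each mouse left out included. Between genotypes on chow the count moved to 1 with DESeq2, from which nothing is read because *Serpina1e* had been selected there. The log2 fold change of *Serpina1a* between diets in controls turned to -0.0153 (limma voom), -0.00499 (upper-quartile normalization) and -0.0136 (replicate block). That of *Serpina3n* between diets in knockouts turned to 0.0168 with the replicate block, and that of *Serpina1b* between genotypes on HF/HS to 0.00480 with upper-quartile normalization. With each mouse left out in turn, values near 0 changed sign. Between diets in controls *Serpina1a* ran from -0.0421 to 0.0916, *Serpina1c* from -0.0979 to 0.0200 and *Serpina1d* from -0.00136 to 0.0568. Between diets in knockouts *Serpina1a* ran from -0.0877 to 0.0223 and *Serpina3n* from -0.238 to 0.185. Between genotypes on HF/HS *Serpina1a* ran from -0.0709 to 0.0643, *Serpina1b* from -0.0559 to 0.0162, *Serpina3m* from -0.171 to 0.0941 and *Serpina6* from -0.138 to 0.0495. The sum of *Serpina1a* to *Serpina1e* between diets in knockouts ran from -0.0236 to 0.0821. The lowest adjusted p of *Serpina3n* between diets in controls was 0.0535 (without replicate 3 of the controls on chow), and the highest 0.185. The share of *Serpina1e* in its family kept the sign of its difference in all 4 comparisons with each mouse left out.

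Counts over all genes moved more. Between diets in controls 1424 genes fell to 774 with the replicate block, and between diets in knockouts 802 rose to 1401 with DESeq2 and fell to 467 without replicate 2 of the knockouts on chow. Between genotypes, DESeq2 called 55 genes in place of 2 on HF/HS and 13 in place of 1 on chow. On HF/HS all 27 mice in 1 fit gave 1, and the count was 5 without replicate 7 of the controls and 11 without replicate 5 of the knockouts. Over 39 pairs of same-numbered mice of different groups, r between their deviations ran from -0.25 to 0.37 (median 0.006, 10 over 0.1). Mice with different numbers were not compared in this way, so that whether the numbers pair the mice is not settled. The cause of these changes was not tested. Depth limited none of the 9 genes, whose smallest count was 1510.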
